A study of Mus musculus with 12 samples.

Results

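The eicosanoid synthesis genes described here are 10 genes that make, or sense, the signalling lipids derived from arachidonic acid: Alox15, Alox5, Alox5ap, Ltc4s, Ptgs1, Ptgs2, Ptges, Ptgds, Hpgds and Cysltr1. Each symbol was matched to 1 Ensembl identifier among the 54532 rows of a read count table, and 9 of the 10 passed the filter on low counts, as did 17473 rows in all. RNA of whole mouse lung was sequenced from 4 groups of 3 libraries. CKO_CRE and CKO_PBS came from Cc10-Cre;Rhoafl/fl mice, and WT_CRE and WT_PBS from Cc10-Cre mice, so all 4 groups carry the Cc10-Cre transgene and none is free of it. CKO_CRE and WT_CRE mice received a treatment labelled CRE, which the labels do not spell out and which is not the Cre recombinase, and CKO_PBS and WT_PBS mice received PBS.

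Cc10 is the secretory protein of club cells in the airway lining, so Cre acts in a small part of the tissue that was sequenced. The sources give no strain, age, dose or schedule. Nothing in the labels says whether replicates came from separate mice, so p-values measure the spread between these libraries. Library totals ran from 16250674 to 21559210 counts. Rhoa, the floxed gene, had 465 to 544 CPM (the read count scaled to the size of the library) in CKO_CRE against 521 to 531 CPM in WT_CRE, and 398 to 481 CPM in CKO_PBS against 471 to 488 CPM in WT_PBS, and it did not differ between genotypes in edgeR's quasi-likelihood test (adjusted p = 0.728 under CRE and 1 under PBS). Lung markers were high in all 12 libraries, with the type 2 cell gene Sftpc between 8600 and 16300 CPM. On the first principal component, which held 64.4% of the variance, CKO_CRE replicate 2 scored 82.6, inside the range of 71.6 to 84.7 in WT_CRE, while CKO_CRE replicates 1 and 3 scored 10.1 and 31.2. The PBS libraries lay between -66.5 and -47.3. Y-linked counts showed 2 females in CKO_CRE, 2 in WT_CRE, 1 in CKO_PBS and 0 in WT_PBS.

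Eicosanoids are made when phospholipase A2 frees arachidonic acid from membranes. Cyclooxygenases turn it into prostaglandin H2, from which terminal synthases make prostaglandins and thromboxane, and lipoxygenases turn it into leukotrienes and hydroxy acids. In allergic airways, cysteinyl leukotrienes and prostaglandin D2 are known for bronchoconstriction and for drawing in eosinophils and lymphocytes, while prostaglandin E2 can restrain or promote inflammation, depending on the receptor.

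Under CRE, the genes of the 12/15-lipoxygenase, cyclooxygenase-1, prostaglandin E synthase and haematopoietic prostaglandin D synthase steps were higher than under PBS in both genotypes, as was the gene of the 5-lipoxygenase-activating protein. Genes called at an edgeR adjusted p below 0.05 were 6 of 9 tested members in CKO and 5 of 9 in WT, all of them higher. Of all 17473 tested genes, 20.6% were called higher and 18.5% lower in CKO, and 28.6% were called higher and 28.4% lower in WT. The median log2 fold change of the members was 0.83 in CKO and 0.89 in WT, against 0.004 and 0.01 over all tested genes. Without CKO_CRE replicate 2, 5 members were called in CKO, with Cysltr1 lost (adjusted p = 0.0543). Alox5, Ltc4s and Ptgs2 were called in neither genotype. In bulk tissue, more cells of a type and more RNA per cell cannot be told apart.

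**Figure D1:**
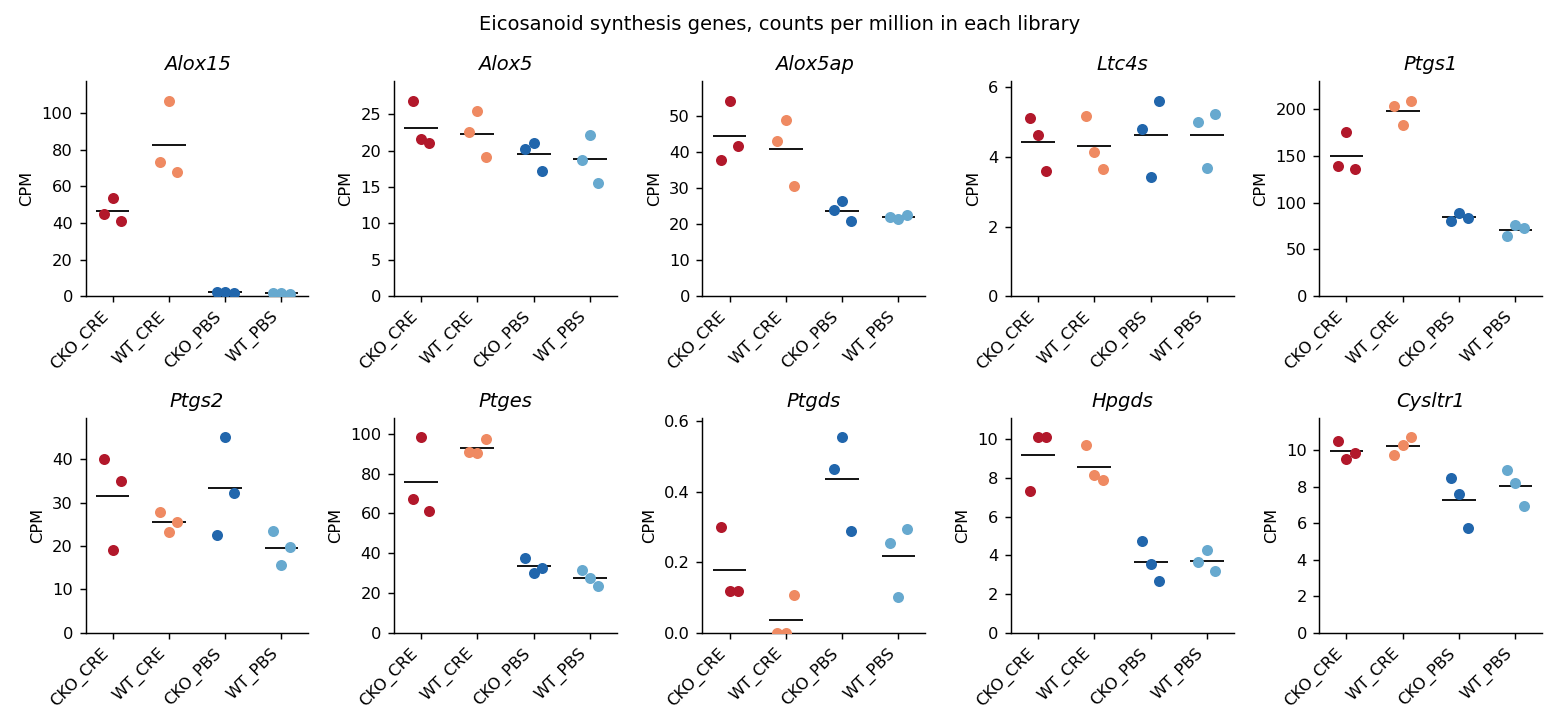
CPM of the 10 eicosanoid synthesis genes in each of the 12 libraries, with the mean of each group of 3 as a line and a separate linear axis from 0 for each gene. Alox15 lies between 41.2 and 107 CPM in the 6 CRE libraries and at or under 2.45 CPM in the 6 PBS libraries, whereas the groups of Ltc4s overlap throughout.

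The members are spread over the genome (GRCm38, GENCODE gene spans). Of the leukotriene genes, Alox5 lies at chr6:116410077-116461178, Alox5ap at chr5:149264767-149288153 and Ltc4s at chr11:50236461-50238616. Of the prostaglandin genes, Ptgs1 lies at chr2:36230426-36252272, Ptgs2 at chr1:150100031-150108227, Ptges at chr2:30889471-30929863, Ptgds at chr2:25466709-25470046 and Hpgds at chr6:65117293-65144908. Alox5ap, Ptgs1 and Ptgs2 are on the plus strand and the other members on the minus strand.

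Per kilobase of merged exon, the members differed widely in level. In CKO_CRE the order by mean CPM per kilobase was Ptgs1 (38.6 ± 5.47, SD, n = 3), Alox5ap (31.4 ± 6.10), Ptges (19.3 ± 5.05), Alox15 (19.0 ± 2.61), Ptgs2 (6.87 ± 2.38), Alox5 (5.64 ± 0.784), Ltc4s (4.38 ± 0.765), Cysltr1 (1.93 ± 0.0924), Hpgds (1.42 ± 0.245) and Ptgds (0.108 ± 0.0641). Of the neighbours in this order, the libraries of Ptgs1 and Alox5ap overlapped, as did those of Ptges and Alox15 and those of Ptgs2 and Alox5, while the other neighbours did not overlap. In WT_CRE, Alox15 stood in the second place at 33.7 ± 8.69 CPM per kilobase, behind Ptgs1 at 51.0 ± 3.53. In WT_PBS, Alox15 stood at 0.621 ± 0.210 CPM per kilobase, near Hpgds at 0.576 ± 0.0859, while Ptgs1 (18.2 ± 1.59) and Alox5ap (15.5 ± 0.335) led. In CKO_PBS the same 2 genes led, with 21.7 ± 1.03 and 16.7 ± 1.96 CPM per kilobase.

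Alox15, the mouse 12/15-lipoxygenase, which oxygenates arachidonic and linoleic acid, showed the largest response among the members. It had 44.9, 53.7 and 41.2 CPM in CKO_CRE, against 2.43, 2.45 and 1.59 CPM in CKO_PBS. In WT it had 73.2, 107 and 67.7 CPM under CRE, against 1.92, 1.71 and 0.943 CPM under PBS. Every CRE library lay above every PBS library. The log2 fold change was 4.43 ± 0.25 (SE) in CKO, 21.6-fold, with an edgeR adjusted p of 1.24e-06. In WT it was 5.74 ± 0.27, 53.3-fold, with an edgeR adjusted p of 2.23e-07. The gene lies on the minus strand of chromosome 11 at chr11:70344152-70352031 (GRCm38), with 14 merged exons.

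Alox15 neighbours other lipoxygenase genes. Alox12e, an epidermal lipoxygenase, lies 21523 bases away on the same strand, and Alox12, the platelet-type 12-lipoxygenase, lies a further 60256 bases on. Alox12e was low but moved in the same direction: it had 1.62, 1.23 and 1.06 CPM in CKO_CRE against 0.0517, 0.231 and 0 CPM in CKO_PBS, and 3.85, 3.88 and 1.39 CPM in WT_CRE against 0.0505, 0.0504 and 0 CPM in WT_PBS. It was called higher in both genotypes (edgeR adjusted p = 0.00261 in CKO and 0.0001 in WT), on at most 5 counts per PBS library. Alox12 fell under CRE in WT, to 2.65, 2.08 and 2.30 CPM against 4.70, 4.03 and 4.89 CPM (log2 fold change -0.95 ± 0.25, edgeR adjusted p = 0.00579). In CKO its log2 fold change was -0.57 ± 0.24 (edgeR adjusted p = 0.0745). The transcripts of Alox15 and Alox12e were 72.1% identical over their longest aligned stretch of 1351 bases, below the 98% used to mark near-identical copies. Within 110 kb of Alox15 on either side, 10 genes were tested, these 3 lipoxygenase genes among them. Of the other 7, 5 were higher and 0 lower under CRE in each genotype, where 20.6% of all genes were called higher in CKO and 28.6% in WT.

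Alox5, the 5-lipoxygenase that begins leukotriene synthesis, had 26.9, 21.6 and 21.0 CPM in CKO_CRE against 20.3, 21.0 and 17.2 CPM in CKO_PBS. It had 22.6, 25.4 and 19.1 CPM in WT_CRE against 18.7, 22.2 and 15.5 CPM in WT_PBS. The groups overlapped in both genotypes. The log2 fold change was 0.25 ± 0.16 in each, with 95% intervals of -0.10 to 0.59 in CKO and -0.09 to 0.60 in WT (edgeR adjusted p = 0.233 and 0.192).

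Alox5ap encodes the membrane protein that hands arachidonic acid to the 5-lipoxygenase, and it rose where the enzyme's own gene was not called. It had 37.7, 54.3 and 41.6 CPM in CKO_CRE against 23.8, 26.4 and 20.8 CPM in CKO_PBS, and 43.1, 48.8 and 30.5 CPM in WT_CRE against 21.9, 21.5 and 22.5 CPM in WT_PBS. The CRE and PBS libraries did not overlap in either genotype. Log2 fold changes were 0.91 ± 0.17 in CKO and 0.89 ± 0.17 in WT (edgeR adjusted p = 0.00216 and 0.00109). The difference between the responses of Alox5ap and Alox5 was not tested.

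Ltc4s, the synthase that joins glutathione to leukotriene A4, had the smallest log2 fold change of the members in both genotypes. It had 5.11, 4.62 and 3.59 CPM in CKO_CRE against 4.81, 3.42 and 5.62 CPM in CKO_PBS, and 5.17, 4.15 and 3.64 CPM in WT_CRE against 5.00, 3.68 and 5.24 CPM in WT_PBS. All 4 groups overlapped. The 95% interval of the CRE effect ran from -0.58 to 0.46 in CKO and from -0.62 to 0.42 in WT on the log2 scale. The antisense gene Gm26542 shares 268 exon bases with Ltc4s and had at most 27 counts per library. Gm19719 shares 189 with Alox5ap and had at most 18.

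Cysltr1, the receptor for cysteinyl leukotrienes, had 10.5, 9.52 and 9.82 CPM in CKO_CRE against 8.47, 7.62 and 5.72 CPM in CKO_PBS, and 9.71, 10.3 and 10.7 CPM in WT_CRE against 8.89, 8.21 and 6.95 CPM in WT_PBS. The CRE libraries lay above the PBS libraries in both genotypes. The log2 fold change of 0.45 ± 0.16 in CKO passed the test (edgeR adjusted p = 0.0397), and that of 0.35 ± 0.16 in WT did not (adjusted p = 0.0732). The call in CKO held in 4 of 12 fits with 1 library left out (without CKO_PBS replicate 1, WT_CRE replicate 3, or WT_PBS replicate 1 or 3), with adjusted p between 0.0276 and 0.154 over the 12. It was lost with sex as a covariate (edgeR adjusted p = 0.0674), without the low-count filter (0.0815) and with only the CKO groups fitted (0.118). The gene lies on the X chromosome at chrX:106574346-106603679 (GRCm38). The difference between the genotypes' responses was 0.10 ± 0.22 (edgeR adjusted p = 0.878).

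The cyclooxygenase genes differed in their response. Because the prostaglandin branch holds genes that rose together and 1 that was not called, the 250 bases before the RefSeq start (GRCm38.p6) are shown for Ptgs1, Ptges and Hpgds, the 3 called genes of this branch, and for Ptgs2. Capitals mark every match, searched on both strands, to TATAAA of the TATA box, to GGGCGG of the GC box, to TTGCGCAA, a palindrome that C/EBP proteins can bind, and to the STAT-type palindromes TTCNNNGAA and also TTCNNNNGAA, none of which overlapped. No match in the windows of Ptgs1 and Hpgds means only that these letters do not occur there.
Ptgs1: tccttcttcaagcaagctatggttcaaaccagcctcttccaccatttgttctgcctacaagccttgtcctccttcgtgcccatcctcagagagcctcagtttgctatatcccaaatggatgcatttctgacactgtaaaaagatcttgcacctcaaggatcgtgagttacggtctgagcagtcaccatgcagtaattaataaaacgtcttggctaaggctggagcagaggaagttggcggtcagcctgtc
Ptges: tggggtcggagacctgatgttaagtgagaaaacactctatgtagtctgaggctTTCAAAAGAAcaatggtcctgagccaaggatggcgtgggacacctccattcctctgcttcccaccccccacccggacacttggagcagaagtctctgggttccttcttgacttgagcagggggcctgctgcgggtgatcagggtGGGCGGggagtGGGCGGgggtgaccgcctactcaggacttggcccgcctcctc
Hpgds: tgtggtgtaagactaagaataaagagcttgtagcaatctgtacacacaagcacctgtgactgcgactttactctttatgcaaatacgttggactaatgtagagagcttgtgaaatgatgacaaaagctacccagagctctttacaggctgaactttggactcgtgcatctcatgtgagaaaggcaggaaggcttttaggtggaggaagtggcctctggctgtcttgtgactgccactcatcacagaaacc
Ptgs2: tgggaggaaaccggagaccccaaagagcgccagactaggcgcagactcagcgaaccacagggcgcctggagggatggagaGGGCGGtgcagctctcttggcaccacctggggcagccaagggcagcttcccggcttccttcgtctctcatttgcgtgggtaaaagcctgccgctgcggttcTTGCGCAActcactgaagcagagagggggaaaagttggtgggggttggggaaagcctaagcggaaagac
The Ptgs1 window lies on the plus strand at chr2:36230176-36230425, that of Ptges on the minus strand at chr2:30903298-30903547 (all 250 bases inside the GENCODE span of the gene), that of Hpgds on the minus strand at chr6:65144731-65144980 (178 bases inside it) and that of Ptgs2 on the plus strand at chr1:150099781-150100030. The Ptgs2 window holds 1 GGGCGG, which 32.7% of 32851 such windows hold, and 1 TTGCGCAA, which 0.164% hold. The Ptges window holds 2 GGGCGG and 1 TTCNNNNGAA, which 5.85% of windows hold. TATAAA and TTCNNNGAA occur in 12.4% and 7.02% of windows and in none of these 4. A match describes letters and not binding. The table of promoters matched 7 of the 10 members.

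Ptgs1, the constitutive cyclooxygenase-1, had 139, 175 and 136 CPM in CKO_CRE against 80.6, 88.6 and 84.0 CPM in CKO_PBS. In WT it had 203, 183 and 209 CPM under CRE against 63.8, 75.7 and 72.5 CPM under PBS. Every CRE library was above every PBS library, and every WT_CRE library above every CKO_CRE library. The log2 fold change was 0.83 ± 0.11 in CKO and 1.49 ± 0.11 in WT (edgeR adjusted p = 0.000274 and 4.07e-06). A predicted gene on the opposite strand shares 148 exon bases with Ptgs1 and had at most 52 counts per library, against 1231 or more for Ptgs1.

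Ptgs2, the inducible cyclooxygenase-2, was called in neither genotype. It had 40.2, 19.2 and 35.0 CPM in CKO_CRE against 22.6, 45.1 and 32.2 CPM in CKO_PBS, and 27.8, 23.3 and 25.6 CPM in WT_CRE against 23.4, 15.7 and 19.8 CPM in WT_PBS. The spread was wider in both CKO groups than in both WT groups, and the CRE and PBS groups overlapped in both genotypes. The log2 fold change was -0.08 ± 0.27 in CKO and 0.38 ± 0.28 in WT (edgeR adjusted p = 0.832 and 0.264), with 95% intervals of -0.68 to 0.52 and -0.23 to 0.99. With the WT groups fitted alone it was called higher under CRE in WT (log2 fold change 0.38, edgeR adjusted p = 0.0364).

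Among the terminal synthases, Ptges, the microsomal prostaglandin E synthase, had 67.4, 98.3 and 61.4 CPM in CKO_CRE against 37.7, 30.2 and 32.4 CPM in CKO_PBS, and 91.0, 90.5 and 97.3 CPM in WT_CRE against 31.5, 27.7 and 23.6 CPM in WT_PBS. CRE and PBS libraries did not overlap. The log2 fold change was 1.18 ± 0.17 in CKO and 1.75 ± 0.17 in WT (edgeR adjusted p = 0.000407 and 1.73e-05). CKO_CRE replicate 2 alone among its group reached the WT_CRE libraries.

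Hpgds, the haematopoietic prostaglandin D synthase of mast cells, Th2 cells and antigen-presenting cells, had 7.33, 10.1 and 10.1 CPM in CKO_CRE against 4.75, 3.56 and 2.69 CPM in CKO_PBS, and 9.71, 8.14 and 7.91 CPM in WT_CRE against 3.64, 4.28 and 3.18 CPM in WT_PBS. CRE and PBS libraries did not overlap. It rose by 1.32 ± 0.22 in CKO and 1.21 ± 0.22 in WT on the log2 scale (edgeR adjusted p = 0.00111 and 0.000748), and the difference between these responses, 0.11 ± 0.31, had a 95% interval of -0.57 to 0.79. Ptgds, the lipocalin-type prostaglandin D synthase, was not tested, with 0 to 12 counts per library. Its summed counts were 9 in CKO_CRE and 2 in WT_CRE, against 27 in CKO_PBS and 12 in WT_PBS. In WT_CRE, 2 libraries had 0 counts, where 3 counts, the limit that a count of 0 allows, would be 0.184 and 0.165 CPM. This limit covers counting error only.

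**Figure D2:**
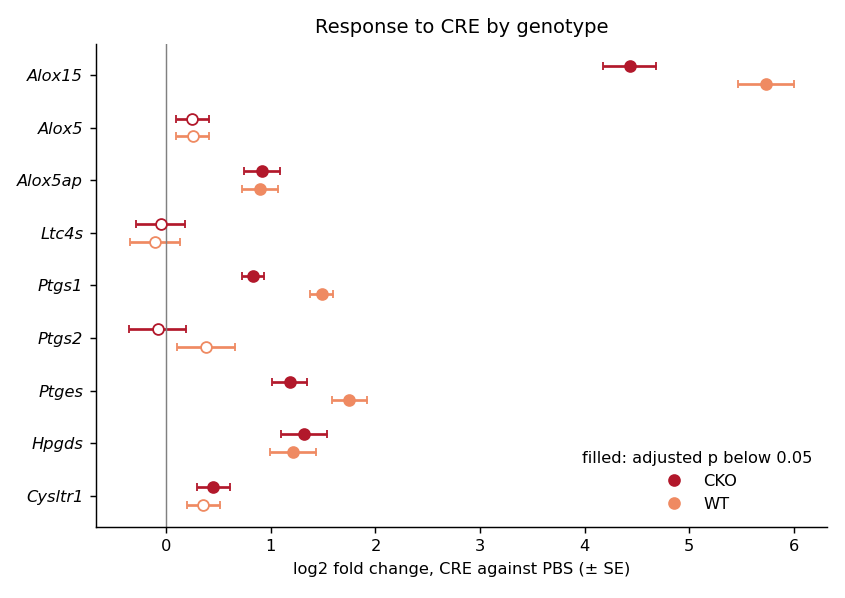
Log2 fold change of CRE against PBS with its standard error for the 9 tested eicosanoid synthesis genes, in CKO and in WT, with filled points for an edgeR adjusted p below 0.05. Alox15, Ptgs1 and Ptges have the WT point to the right of the CKO point, while the points of Alox5ap and Hpgds lie within their standard errors of each other.

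The second question of the design is whether loss of Rhoa in Cc10-Cre cells alters these genes. Under CRE, Alox15, Ptgs1 and Ptges averaged lower in CKO than in WT, but no member passed the test over all genes. Alox15 averaged 46.6 ± 6.41 CPM in CKO_CRE and 82.7 ± 21.3 CPM in WT_CRE (SD, n = 3 each), a log2 fold change of -0.83 ± 0.20 with an edgeR adjusted p of 0.0761. Ptgs1 averaged 150 ± 21.3 CPM in CKO_CRE and 198 ± 13.7 CPM in WT_CRE, a log2 fold change of -0.40 ± 0.11 with an edgeR adjusted p of 0.101. For both genes, 2 of the 9 tested members, the CKO_CRE and WT_CRE libraries did not overlap. The share of all genes without overlap is not given here, so this adds nothing to the test. Ptges averaged 75.7 ± 19.8 CPM in CKO_CRE and 92.9 ± 3.77 CPM in WT_CRE, with overlapping libraries (log2 fold change -0.30 ± 0.16, edgeR adjusted p = 0.337). The other 6 tested members had log2 fold changes between -0.05 and 0.30, all with overlapping libraries. Of all tested genes, 0.916% were called in either direction. Of the 9 members, 0 were called by edgeR, 2 had an unadjusted p below 0.05, 2 were called by the DESeq2 Wald test (Alox15 and Ptgs1), and 3 by limma-voom with library quality weights (with Ptges). Over all genes these rules gave 18.5% for the unadjusted p, 4.8% for DESeq2 and 43.8% for limma-voom.

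The outcome depended on CKO_CRE replicate 2 and on the test and filter. Without that library, Alox15 (log2 fold change -0.94, edgeR adjusted p = 0.00596), Ptgs1 (-0.52, 0.00157) and Ptges (-0.53, 0.00666) were called lower in CKO_CRE than in WT_CRE. In that fit 12.7% of 17931 tested genes were called lower, against the 3 of 9 members. Leaving out any other single library made no call among the members in this comparison. With all libraries kept, Alox15 was also called without the low-count filter (edgeR adjusted p = 0.00749), where 2.14% of all genes were called, and with the replicate number as a block (0.0213), where 0.864% were, although the numbers do not pair the libraries.

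**Figure D3:**
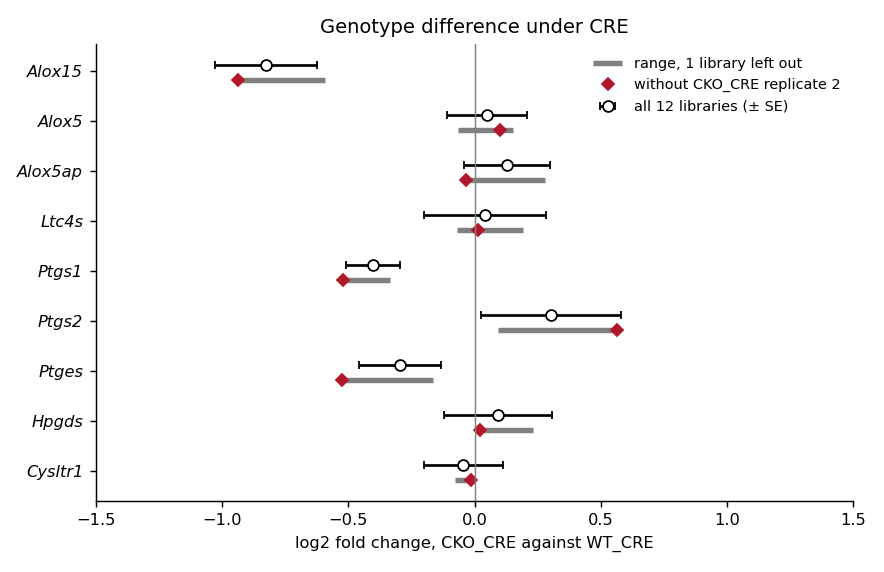
Log2 fold change of CKO_CRE against WT_CRE for the 9 tested eicosanoid synthesis genes, with all 12 libraries (open circles with standard errors), as a range over 12 fits that leave out 1 library each (grey bars), and without CKO_CRE replicate 2 (red diamonds). Alox15, Ptgs1 and Ptges stay below 0 in every such fit and lie farthest below it, or close to it, without that library.

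The marker genes of several cell types moved in the same libraries. Of all tested genes, CRE called 20.6% higher and 18.5% lower in CKO, and 28.6% higher and 28.4% lower in WT. Between genotypes under CRE, 0.916% were called. The counts of markers below stand beside these shares, which differ between the genotypes. In the interaction, 0 alveolar macrophage and 0 eosinophil markers were called. The summed level of 7 interstitial macrophage markers was 1080, 1940 and 1330 CPM in CKO_CRE against 2080, 1950 and 1910 CPM in WT_CRE, and 286 to 354 CPM in CKO_PBS against 267 to 341 CPM in WT_PBS. Of these markers, 7 rose under CRE in CKO and 6 in WT. The 6 alveolar macrophage markers summed to 414, 204 and 276 CPM in CKO_CRE against 185, 198 and 140 CPM in WT_CRE. Under PBS they summed to 258 to 313 CPM in CKO and 253 to 280 CPM in WT. Of these 6, 1 fell under CRE in CKO and 4 in WT. Between genotypes under CRE, 3 of them, Fabp1, Krt79 and Cidec, were called higher in CKO_CRE. Car4 led the sum in every group, with 156 to 278 CPM in CKO_CRE and 121 to 168 CPM in WT_CRE. Under PBS it had 163 to 185 CPM in CKO and 153 to 172 CPM in WT, so the sums follow this gene most. In the interstitial and alveolar sums CKO_CRE replicate 2 was the library of its group nearest to WT_CRE. The interstitial markers did not all move alike, with 1 of 7 called higher and 1 lower in CKO_CRE than in WT_CRE. Cd163 had 55.1 to 62.5 CPM in CKO_CRE against 140 to 151 CPM in WT_CRE. Cx3cr1 went the other way, with 27.5 to 36.2 CPM in CKO_CRE against 10.3 to 15.5 CPM in WT_CRE. The 4 Th2 and ILC2 markers summed to 27.6, 34.2 and 29.0 CPM in CKO_CRE against 70.5, 76.2 and 58.3 CPM in WT_CRE, without overlap and with replicate 2 away from WT_CRE, and to 12.5 to 17.7 CPM in CKO_PBS against 12.8 to 15.4 CPM in WT_PBS. All 4 rose under CRE in both genotypes, and 2 of them, Il13 and Il1rl1, were called lower in CKO_CRE than in WT_CRE (edgeR adjusted p = 0.028 and 0.0322). Hpgds and Ptgdr2 were listed for these cells too, but were counted as a member and in the wider list. Ptgdr2 went the other way, with a call lower under CRE in WT (log2 fold change -1.67 ± 0.44, edgeR adjusted p = 0.00698). Its log2 fold change was -0.93 ± 0.44 in CKO (edgeR adjusted p = 0.108) and 0.39 ± 0.48 between genotypes under CRE (0.671). The 4 monocyte markers ran the other way, with 266, 427 and 339 CPM in CKO_CRE against 248, 291 and 212 CPM in WT_CRE, and 91.2 to 110 CPM in CKO_PBS against 89.3 to 97.4 CPM in WT_PBS, and 0 of them were called between genotypes under CRE. Eosinophil markers summed to 31.2 to 58.6 CPM in CKO_CRE and 48.4 to 81.4 CPM in WT_CRE, against 20.5 to 25.8 CPM in CKO_PBS and 22.3 to 25.0 CPM in WT_PBS. Of 5 tested, 2 rose under CRE in CKO and 4 in WT. Nearly all of the PBS sums was Siglecf, at 18.6 to 23.9 CPM in CKO_PBS and 21.0 to 23.9 CPM in WT_PBS. The PBS sums thus rest on 1 gene and are no measure of eosinophils. Ccr3 had at most 1.01 CPM under PBS, against 5.47 to 8.88 CPM in CKO_CRE and 6.90 to 15.5 CPM in WT_CRE. Under CRE Siglecf had 14.5 to 19.3 CPM in CKO and 15.3 to 22.2 CPM in WT. Prg2, an eosinophil granule protein gene, had 6.19 to 25.2 CPM in CKO_CRE and 21.0 to 35.6 CPM in WT_CRE against at most 0.508 CPM under PBS, while the eosinophil peroxidase gene Epx was at or under 0.643 CPM. The part of these cells in the levels of Alox15, Ptgs1, Ptges and the other members was not tested.

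The lists of other cells known to make eicosanoids also differed between the groups. The 7 mast cell markers summed to 150 to 187 CPM in CKO_CRE and 148 to 173 CPM in WT_CRE, against 147 to 206 CPM in CKO_PBS and 232 to 240 CPM in WT_PBS, nearly all of it Kit at 142 to 233 CPM, which other lung cells also express. The tryptase gene Tpsab1 was at 0 in both PBS groups. Of 5 tested mast cell markers, 2 rose and 0 fell under CRE in CKO, while 0 rose and 2 fell in WT. Cpa3 had 1.45 to 2.89 CPM in WT_CRE against 5.09 to 5.36 CPM in WT_PBS. Among 7 tuft cell markers Il25 was at 0 in all libraries and Pou2f3 at or under 0.693 CPM. The list summed to 56.0 to 82.3 CPM in CKO_CRE and 88.2 to 98.9 CPM in WT_CRE, led by Dclk1 and Lrmp. Under PBS it summed to 28.3 to 36.3 CPM in CKO and 24.9 to 26.7 CPM in WT. Of 4 tested, 2 rose under CRE in each genotype. Trpm5 was lower, with 0.164 to 0.321 CPM in WT_CRE against 0.303 to 0.589 CPM in WT_PBS. The 5 platelet markers summed to 28.5, 78.0 and 29.4 CPM in CKO_CRE against 76.8, 76.1 and 58.9 CPM in WT_CRE, and to 15.4 to 19.4 CPM in CKO_PBS against 18.7 to 21.1 CPM in WT_PBS. Pf4, which macrophages also express, had 15.4 to 68.0 CPM of this in CKO_CRE and 48.8 to 66.3 CPM in WT_CRE, and Gp1bb was at 0 throughout. Of 4 tested platelet markers, 1 rose under CRE in CKO, and 1 rose and 1 fell in WT. Ppbp had 1.86 to 3.47 CPM in WT_CRE against 3.95 to 5.31 CPM in WT_PBS. Basophil markers reached at most 11.1 CPM. Summed levels of 6 neutrophil markers ranged from 136 to 408 CPM in CKO_CRE and from 248 to 409 CPM in WT_CRE, against 94.0 to 345 CPM in CKO_PBS and 59.7 to 90.5 CPM in WT_PBS. Of 5 tested, 1 rose under CRE in CKO and 5 in WT, and 0 were called in the interaction. The shares of all genes given with the macrophage markers apply to the counts of these lists too. CKO_PBS replicate 2, the PBS library highest in Ptgs2, had the 345 CPM. In CKO_CRE the order was the reverse: replicate 2 had the highest neutrophil sum, 408 CPM, and the lowest Ptgs2 level, 19.2 CPM. The part of these cells in the members' levels was not tested.

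Under PBS the genotypes differed little in these genes. Ptgs2 had the largest difference, with 33.3 ± 11.3 CPM in CKO_PBS and 19.6 ± 3.89 CPM in WT_PBS and overlapping libraries (log2 fold change 0.76 ± 0.28, edgeR adjusted p = 0.712). Ptgs1 averaged 84.4 ± 4.0 CPM in CKO_PBS and 70.7 ± 6.18 CPM in WT_PBS, without overlap (0.26 ± 0.11, edgeR adjusted p = 0.888). Of 9 members, 0 were called by edgeR, DESeq2 or limma-voom, and 2 had an unadjusted p below 0.05. Over all genes edgeR called 0.109%, DESeq2 0.653% and limma-voom 0.836%, and 5.32% had such an unadjusted p.

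The interaction, the CRE response in CKO minus that in WT, was -1.30 ± 0.36 for Alox15, -0.66 ± 0.15 for Ptgs1 and -0.57 ± 0.23 for Ptges on the log2 scale (edgeR adjusted p = 0.352, 0.231 and 0.444). These 3 members had an unadjusted p below 0.05, and 0 passed the test, where edgeR called 0.0458% of all genes. The DESeq2 Wald test called 2 of them (Alox15 and Ptgs1) and limma-voom 2 (Ptgs1 and Ptges). Over all genes the shares were 10.3% for the unadjusted p, 0.699% for DESeq2 and 25.0% for limma-voom. Without CKO_CRE replicate 2 edgeR called all 3 (adjusted p = 0.0256, 0.00253 and 0.00893), and 6.11% of all genes were called lower in that fit. For Ptgs1 the smaller estimated response in CKO combined a lower level under CRE and a higher level under PBS than in WT. With all libraries, neither difference nor the interaction passed edgeR's test. Alox15 (-0.83 under CRE and 0.48 under PBS) and Ptges (-0.30 and 0.28) had the same signs, also without passing.

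A wider list of 52 other genes of the pathway was counted by role, of which 45 were tested. Under CRE, 14 were called higher and 3 lower in CKO (37.8% in all), and 20 higher and 10 lower in WT (66.7%). Over all tested genes, 20.6% were called higher and 18.5% lower in CKO (39.1% in all), close to the list. In WT, 28.6% of all genes were called higher and 28.4% lower (57% in all). These shares also apply to the counts by role below. The median log2 fold change of the wider list was 0.285 in CKO and 0.317 in WT. Between the genotypes 0 of the 45 were called by edgeR under CRE, under PBS or in the interaction. At an unadjusted p below 0.05 there were 11, 3 and 6 genes, the DESeq2 Wald test called 3, 0 and 1, and limma-voom 20, 0 and 12. Over all genes the shares for the same comparisons were 18.5%, 5.32% and 10.3% for the unadjusted p, 4.8%, 0.653% and 0.699% for DESeq2, and 43.8%, 0.836% and 25.0% for limma-voom.

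**Figure D4:**
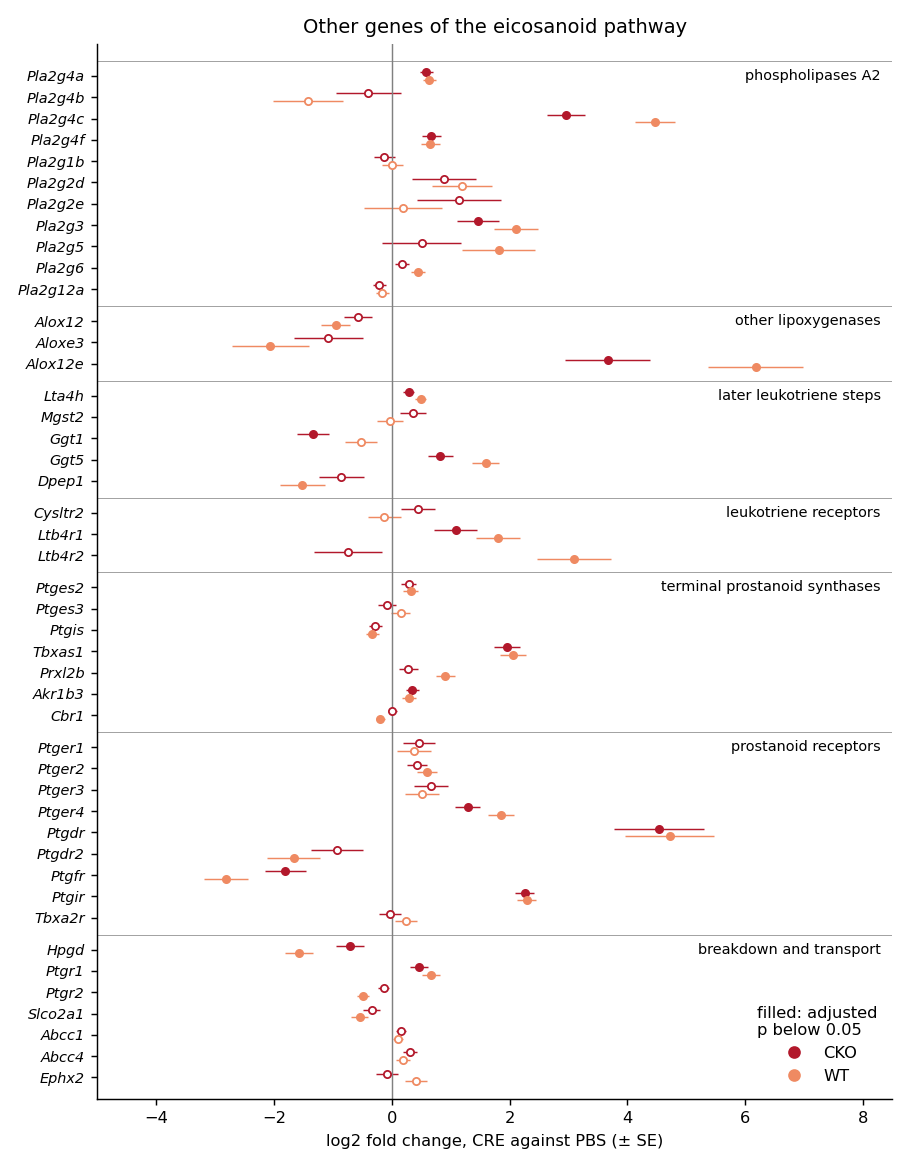
Log2 fold change of CRE against PBS with its standard error for the 45 tested genes of the wider eicosanoid list, grouped by role, in CKO and in WT, with filled points for an edgeR adjusted p below 0.05. Pla2g4c, Alox12e, Tbxas1, Ptgir, Ptger4 and Ptgdr lie to the right in both genotypes, the values of Alox12e and Ptgdr resting on at most 5 counts per PBS library, and Ptgfr and Hpgd lie to the left.

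Of 11 tested phospholipases A2, which release arachidonic acid, 4 rose in CKO and 6 in WT, and 0 fell. Pla2g4c, a calcium-independent cytosolic form, had 6.25, 5.03 and 5.70 CPM in CKO_CRE against 0.465, 1.20 and 0.480 CPM in CKO_PBS, and 13.5, 10.4 and 10.6 CPM in WT_CRE against 0.657, 0.353 and 0.530 CPM in WT_PBS. Its log2 fold change was 2.96 ± 0.33 in CKO and 4.47 ± 0.34 in WT (edgeR adjusted p = 0.000123 and 5.28e-06). Like Alox15, its CKO_CRE and WT_CRE libraries did not overlap (-1.02 ± 0.27, edgeR adjusted p = 0.101). Pla2g4a, the calcium-dependent form that feeds both branches, rose by 0.59 ± 0.11 in CKO and 0.63 ± 0.11 in WT on the log2 scale (edgeR adjusted p = 0.00193 and 0.000515). The secreted form Pla2g3 rose by 1.47 ± 0.36 and 2.11 ± 0.38, at 1.52 CPM or less. Pla2g4f was 0.40 ± 0.16 higher in CKO_CRE than in WT_CRE on the log2 scale without passing the test (edgeR adjusted p = 0.219).

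Among the other lipoxygenases, Aloxe3, an enzyme of the skin barrier, fell in WT (0.126, 0.164 and 0.642 CPM under CRE against 1.57, 1.46 and 1.00 CPM under PBS, edgeR adjusted p = 0.0168), a call lost without WT_CRE replicate 1 (0.0631) or 2 (0.0666) and with sex as a covariate (0.0694). In CKO its log2 fold change was -1.08 ± 0.59 (adjusted p = 0.167).

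Of 5 genes of the later leukotriene steps, 2 rose and 1 fell in each genotype. The dipeptidase gene Dpep2 was also listed, but it matched more than 1 Ensembl identifier and was left out of all counts. Ggt5, which cleaves leukotriene C4 to D4, had 21.0, 33.2 and 29.3 CPM in CKO_CRE against 16.8, 17.7 and 12.6 CPM in CKO_PBS, and 31.5, 36.3 and 20.7 CPM in WT_CRE against 10.8, 8.71 and 9.84 CPM in WT_PBS (log2 fold changes 0.82 ± 0.22 and 1.59 ± 0.23, edgeR adjusted p = 0.012 and 0.000161). The call in CKO was lost without CKO_PBS replicate 3 (0.0542). Lta4h, the leukotriene A4 hydrolase that makes leukotriene B4, rose by 0.28 ± 0.09 in CKO and 0.49 ± 0.09 in WT (edgeR adjusted p = 0.0235 and 0.000674). The call in CKO was lost without CKO_CRE replicate 2 (0.0666) or CKO_PBS replicate 2 (0.0605) or 3 (0.0817), without the low-count filter (0.0503) and with only the CKO groups fitted (0.08). Dpep1, a dipeptidase that converts leukotriene D4 to E4, fell in WT to 59.9, 37.8 and 60.8 CPM under CRE, against 149, 157 and 149 CPM under PBS (-1.52 ± 0.39, edgeR adjusted p = 0.00538). In CKO it had 132, 31.7 and 120 CPM under CRE against 176, 145 and 192 CPM under PBS (-0.86 ± 0.38, adjusted p = 0.0893). The gene that fell in CKO was Ggt1 (-1.34 ± 0.27, edgeR adjusted p = 0.0031), which lies outside the rule for named genes and was chosen after its values were seen.

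Of the leukotriene B4 receptors, Ltb4r1, the high-affinity form, had 6.55, 16.7 and 6.11 CPM in CKO_CRE against 4.24, 5.91 and 3.70 CPM in CKO_PBS, and 15.2, 16.1 and 9.79 CPM in WT_CRE against 4.70, 3.27 and 3.77 CPM in WT_PBS. It was called higher in both genotypes (1.08 ± 0.36 and 1.80 ± 0.37, edgeR adjusted p = 0.0339 and 0.00152). Without CKO_CRE replicate 2 the response in CKO was 0.45 (edgeR adjusted p = 0.211), and the call was also lost without CKO_PBS replicate 1 (0.0927) or 3 (0.115), with sex as a covariate (0.0691), with only the CKO groups fitted (0.0973) and with limma-voom (0.56, adjusted p = 0.0834). Ltb4r2, the low-affinity form, rose in WT, to 0.820, 1.97 and 2.30 CPM against 0.0505, 0.302 and 0.236 CPM (edgeR adjusted p = 0.00142), and had 0.721, 0.526 and 0.294 CPM in CKO_CRE against 0.465, 1.34 and 0.769 CPM in CKO_PBS (adjusted p = 0.324). Cysltr2, the second cysteinyl leukotriene receptor, was called in neither (0.44 ± 0.28 in CKO and -0.13 ± 0.28 in WT).

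Of 7 further terminal prostanoid synthases, 2 rose in CKO, and 4 rose and 2 fell in WT. Tbxas1, the thromboxane synthase of macrophages and platelets, had 43.1, 63.3 and 47.5 CPM in CKO_CRE against 13.0, 17.2 and 9.56 CPM in CKO_PBS, and 59.4, 63.9 and 51.9 CPM in WT_CRE against 11.8, 17.7 and 12.8 CPM in WT_PBS (1.95 ± 0.22 and 2.05 ± 0.22, edgeR adjusted p = 0.000141 and 3.28e-05). Prxl2b, a prostaglandin F synthase, rose in WT by 0.91 ± 0.16 (edgeR adjusted p = 0.000702), and its log2 fold change in CKO was 0.28 ± 0.16 (adjusted p = 0.197). Ptgis, the prostacyclin synthase, fell in WT by 0.33 ± 0.12 on the log2 scale (edgeR adjusted p = 0.0283), a call lost with sex as a covariate (0.189) and without WT_CRE replicate 2 (0.094) or 3 (0.0734) or WT_PBS replicate 1 (0.0524) or 2 (0.0897). Ptges3, the cytosolic prostaglandin E synthase and Hsp90 co-chaperone p23, differed by -0.22 ± 0.16 between CKO_CRE and WT_CRE (edgeR adjusted p = 0.455).

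Of 9 prostanoid receptors, 3 rose and 1 fell in CKO, and 4 rose and 2 fell in WT. Ptgir, the prostacyclin receptor, had 31.8, 31.8 and 26.3 CPM in CKO_CRE against 7.03, 6.97 and 4.85 CPM in CKO_PBS, and 30.5, 27.9 and 35.3 CPM in WT_CRE against 7.02, 5.59 and 6.60 CPM in WT_PBS (2.25 ± 0.16 and 2.29 ± 0.16, edgeR adjusted p = 8.4e-06 and 3.49e-06). Ptger4, a receptor for prostaglandin E2, rose by 1.29 ± 0.21 in CKO and 1.86 ± 0.22 in WT (edgeR adjusted p = 0.00104 and 5.01e-05). Ptgfr, the receptor for prostaglandin F2 alpha, fell to 9.31, 2.57 and 9.47 CPM in CKO_CRE, against 23.4, 24.3 and 27.0 CPM in CKO_PBS, and to 2.33, 2.46 and 3.96 CPM in WT_CRE, against 21.3, 20.0 and 20.8 CPM in WT_PBS (-1.81 ± 0.35 and -2.82 ± 0.38, edgeR adjusted p = 0.00234 and 0.00011). CKO_CRE replicate 2 lay among the WT_CRE libraries.

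Hpgd, the dehydrogenase that inactivates prostaglandins, was 1 of 7 genes of breakdown and transport, of which 1 rose and 1 fell in CKO, and 1 rose and 3 fell in WT. Its level fell to 342, 188 and 357 CPM in CKO_CRE, against 481, 360 and 612 CPM in CKO_PBS, and to 145, 208 and 157 CPM in WT_CRE, against 525, 486 and 508 CPM in WT_PBS (-0.71 ± 0.24 and -1.58 ± 0.25, edgeR adjusted p = 0.0338 and 0.000271). The CRE and PBS libraries did not overlap, although the nearest pair in CKO stood at 357 and 360 CPM. The call in CKO was lost without CKO_CRE replicate 2 (0.0829) or CKO_PBS replicate 1 (0.0703) or 3 (0.146), with sex as a covariate (0.072) and with only the CKO groups fitted (0.105). Ptgr1, a prostaglandin reductase, rose by 0.46 ± 0.15 in CKO and 0.67 ± 0.15 in WT (edgeR adjusted p = 0.0275 and 0.00256). That call in CKO was lost without CKO_CRE replicate 2 (0.0984) or CKO_PBS replicate 1 (0.0659) or 2 (0.097), with only the CKO groups fitted (0.0963) and with limma-voom (log2 fold change 0.19, adjusted p = 0.129). Ptgr2, another reductase, fell in WT by 0.49 ± 0.10 on the log2 scale (edgeR adjusted p = 0.00138).

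Reads of some of these genes cannot be assigned with certainty, because the sources used here give no strand setting for the counting. Pla2g3 shares 401 exon bases with Inpp5j, Ptger4 82 with Ttc33, Ptgfr 329 with Gm43618 and Ptgr2 1896 with Gm47484, each on the opposite strand. Ptges3 has a pseudogene identical to it over 480 bases. None of the 10 members had a copy of 98% or more identity over at least 200 bases among annotated transcripts.

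The genes most like each member over the 12 libraries were named by Pearson's r of log2 CPM among 13827 genes. These libraries share the split into CRE and PBS, and r is given as a description. For Alox15 they were Slc26a4, the anion exchanger pendrin, and Retnla, a resistin-like secreted protein (r = 0.993 and 0.992). For Ptgs1 they were the chemokine gene Ccl6 and Tmem176a (0.992 and 0.989), for Ptges Hdgfl2 and Col24a1 (0.989 and 0.988), for Alox5ap the pyrin gene Mefv and the kinase gene Fgr (0.978 each), and for Hpgds Polr3c and Zdhhc12 (0.977 and 0.973). Ptgs2 was most like Plat and Cnn1 (0.890 and 0.853), and Ltc4s had no r above 0.803.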

How the data were processed

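Whole-lung RNA-seq libraries (12, in 4 groups of 3) were analysed from 1 table of gene read counts deposited by the authors, which was not normalized. Reads were trimmed with fastp and aligned to mm10 with STAR, per the submitters' processing notes, while the sources used here name no counting tool and no strand setting. Of 54532 identifiers, 54495 matched the GENCODE M21 annotation (GRCm38), and 22229 had no count.

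Counts were filtered with filterByExpr (about 0.539 CPM), scaled by TMM and fitted with edgeR 4.0.16 (R 4.3.3) with 1 mean per group over all 12 libraries. The quasi-likelihood test was used, with Benjamini-Hochberg adjustment over 17473 genes and a threshold of 0.05. The biological coefficient of variation was 17.4%. Standard errors were the log2 fold change divided by the square root of F. 95% intervals used the t distribution of that fit. CPM values are counts scaled by TMM to the effective library size. A self-test on simulated counts was run.

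Members and lists were chosen with earlier results of these data known. Wider genes were named by a rule, in each role the 3 with the lowest p for CRE in WT and the 2 with the lowest p between genotypes under CRE. Alternatives were no filter, DESeq2 size factors, the DESeq2 1.42.0 Wald test, limma-voom 3.58.1 with quality weights, a replicate block, sex as a covariate, only the groups compared and each library left out. The counts over the wider list under these alternatives were added after seeing the data.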

Additional observations from a re-analysis of the deposited data

Results flagged for a closer look

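The leukotriene B4 receptor gene Ltb4r2 rose under CRE in WT, and its estimate in CKO was below 0 without passing the test (log2 fold change -0.74, edgeR adjusted p = 0.324). All 3 CKO_CRE libraries (0.721, 0.526 and 0.294 CPM) lay below the mean of CKO_PBS (0.465, 1.34 and 0.769 CPM) but overlapped its libraries, and all 3 WT_CRE libraries (0.820, 1.97 and 2.30 CPM) lay above that of WT_PBS (0.0505, 0.302 and 0.236 CPM). The interaction was -3.83 ± 0.85 (SE) on the log2 scale and did not pass edgeR's test over all genes (adjusted p = 0.231).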

How the results depend on the processing

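Of 846 log2 fold changes of members recomputed under an alternative, 762 kept their direction and side of the threshold, 11 lost and 21 gained a call, and 52 changed sign. Between genotypes under CRE, the members called were 0 as reported, 1 without the low-count filter, 2 with DESeq2, 3 with limma-voom, 1 with the replicate block (which changed no other member count by over 1.5 times; same-numbered libraries correlated between -0.023 and 0.176, so the numbers pair nothing) and 0 to 3 with 1 library left out. For the interaction they were 0, against 2 with DESeq2, 2 with limma-voom and 0 to 3 with 1 library left out. Of the wider list, 3, 3 and 20 genes were called between genotypes under CRE without the filter, with DESeq2 and with limma-voom, and 0 to 11 with 1 library left out (11 without CKO_CRE replicate 2, 1 without CKO_PBS replicate 2); in the interaction 1, 1, 12 and 0 to 8. Under limma-voom the log2 fold change of CRE was 0.18 for Ptgs2 in CKO, 0.041 for Ltc4s in WT and 0.052 for Cysltr2 in WT, that of CKO against WT under CRE -0.0605 for Alox5, -0.0202 for Alox5ap and -0.32 for Ltc4s, that under PBS 0.059 for Ltc4s, and the interaction -0.083 for Alox5ap and -0.38 for Ltc4s. With sex as a covariate CRE gave 0.11 and 0.18 for Ltc4s in CKO and WT and 0.19 for Cysltr2 in WT, and Ltc4s had 0.12 between genotypes under PBS and -0.075 in the interaction. Without the filter the interaction of Alox5 was 0.0084. With 1 library left out, CRE in CKO ran from -0.234 to 0.110 for Ltc4s and -0.298 to 0.199 for Ptgs2, and CRE in WT from -0.255 to 0.0031 for Ltc4s and -0.371 to 0.0045 for Cysltr2. Between genotypes under CRE it ran from -0.067 to 0.153 for Alox5, -0.041 to 0.279 for Alox5ap and -0.068 to 0.191 for Ltc4s. Under PBS it ran from -0.067 to 0.189 for Alox5, -0.173 to 0.170 for Ltc4s, -0.245 to 0.165 for Hpgds and -0.266 to 0.0057 for Cysltr1. The interaction ran from -0.136 to 0.120 for Alox5, -0.149 to 0.171 for Alox5ap, -0.125 to 0.217 for Ltc4s, -0.070 to 0.341 for Hpgds and -0.047 to 0.225 for Cysltr1. The cause of these shifts was not tested. The interaction needs all 4 groups, so a fit of only the groups compared was not available. With 3 libraries a group and 3 counts equal to 0.139 to 0.185 CPM, depth limits genes with few counts, Ptgds among the members.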
